A study of Mus musculus with 11 samples.

Results

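Regulators of the G1 phase decide whether a progenitor divides again. The genes described here are the D-type cyclins Ccnd1, Ccnd2 and Ccnd3, their kinases Cdk4 and Cdk6, the CDK inhibitors Cdkn1b (p27), Cdkn1c (p57) and Cdkn2c (p18), and the pocket proteins Rb1 and Rbl1 (p107). They were chosen by symbol from a list, and all 10 were found among the 48440 genes of the RNA-seq count table and the 32285 genes of both scRNA-seq matrices. The RNA-seq measured cultured neural progenitor cells (NPCs) of E14.5 mouse brain, 3 cultures labelled WT and 3 labelled Syncrip cKO. Totals ran from 16962903 to 22708400 counts per culture. The scRNA-seq measured the E14.5 neocortex of 1 WT and 1 cKO embryo from the same litter. Syncrip encodes an RNA-binding protein of the hnRNP family. In the study's mice, on a C57BL/6 background, exons 2 to 4 of Syncrip are flanked by loxP sites and removed by a Cre recombinase driven from Emx1, which acts in dorsal neocortical progenitors and their progeny and spares the ganglionic eminences (GE). NPCs were grown with EGF and bFGF. The labels do not give the Cre line behind these cultures, but the paper uses the name Syncrip cKO for its Emx1-Cre mice. Nothing states that the 3 cultures of a genotype came from separate embryos. Y-linked genes held 8899, 5903 and 1 counts in WT replicates 1, 2 and 3, and 9232, 0 and 0 in the cKO replicates. Each genotype thus mixed cultures with and without Y-linked reads, unevenly, so the 3 were not all copies of the same culture. The p-values measure the spread between these cultures, part of which may be technical.

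In G1, D-type cyclins bind CDK4 or CDK6, and the active kinase phosphorylates the retinoblastoma family, which then releases E2F transcription factors and lets the cell enter S phase. Members of the Cip/Kip family (p27, p57) restrain cyclin-CDK complexes, whereas p18 of the INK4 family binds CDK4 and CDK6 directly. In the developing cortex, apical progenitors (APs) line the ventricle, intermediate progenitors (IPs) divide a few more times, and their daughters leave the cycle and migrate as neurons, so these genes are widely used to follow cell cycle exit.

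Of the 6 members matched to a RefSeq start region, Rbl1 was the only one in which that region held an E2F-type motif, and its stretch is shown. The region ran from 250 bases before to 50 after the start (GRCm38.p6). A link between the motif and the level of Rbl1 was not tested. Cdkn2c, whose start regions held none of the exact motifs searched, also varied with the cell cycle phase below. Lack of a match does not show that E2F sites are absent, and no link to phase was tested for either gene. The motifs searched on both strands were TTTCCCGC, TTTCGCGC, TTTGCCGC and TTTGGCGC. Start regions were matched for 6 members, namely Ccnd3, Cdk4, Cdk6, Cdkn1b, Cdkn2c and Rbl1, and 744 of 32851 start regions of all genes (2.26%) held such a motif. The capitals mark the motif, whose first base lies at position -18, at chr2:157204534-157204563 on the minus strand.
Rbl1: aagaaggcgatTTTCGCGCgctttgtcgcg

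Syncrip itself was read first. Its level in CPM, the counts on a gene scaled to a library total of 1000000, was 77.9, 79.8 and 79.9 in the WT cultures and 90.3, 88.7 and 81.5 in the cultures labelled cKO (log2 fold change 0.13, edgeR quasi-likelihood test adjusted p = 0.180). Among WT APs it stood at 315 CPM, and among cKO APs at 324 CPM. Both counts take reads from outside exons 2 to 4, over the whole gene in the cultures and at the 3′ end in single cells, so they do not check the deletion. Every direction below therefore uses the genotype labels, which the counts read here cannot check. The paper itself reports loss of the loxP-flanked exons in RNA-seq tracks of cKO neurospheres. It does not state whether those tracks come from the cultures counted here.

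In the NPC cultures, 2 members rose and 3 fell in the cultures labelled cKO. Cdkn1c showed the largest change of the 10, Ccnd2 and Cdkn1b fell by less, and Ccnd1 and Rbl1 rose. The background was wide: 39.5% of the 14432 genes tested were called at an adjusted p of 0.05, 19.7% higher and 19.8% lower, so 5 of 10 members is a share near what all genes showed. Cultures did not overlap between genotypes for 6 members, beside 50.4% of all genes. The median log2 fold change of the members was 0.15.

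Among the cyclins, Ccnd1, which couples growth factor signals to the cycle, measured 60.7, 56.6 and 49.3 CPM in WT and 62.7, 78.2 and 79.4 CPM in cKO cultures. Every cKO culture lay above every WT culture, the lowest by a narrow margin (log2 fold change 0.40, SE 0.11, edgeR adjusted p = 0.00963). Ccnd2, the D-type cyclin typical of cortical progenitors, went the other way, with 456, 451 and 365 CPM in WT and 298, 368 and 342 CPM in cKO. One cKO culture lay above the lowest WT culture, so the groups overlapped, and the fall was small (-0.33, SE 0.10, edgeR adjusted p = 0.0193). Ccnd3, the third D-type cyclin, ranged from 36.2 to 49.3 CPM in WT and from 45.4 to 55.8 CPM in cKO and did not pass the test (0.28, edgeR adjusted p = 0.0762).

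Neither kinase passed the test. Cdk4, the main partner of D-type cyclins, had means of 213 ± 27.3 CPM in WT and 232 ± 13.1 CPM in cKO (SD, n = 3), and the groups overlapped (log2 fold change 0.12, edgeR adjusted p = 0.308). Cdk6, its close relative, was low, at 12.4, 10.6 and 11.02 CPM in WT and 15.1, 13.7 and 13.5 CPM in cKO. All cKO cultures lay above all WT cultures, yet the adjusted p was 0.0648 by edgeR (log2 fold change 0.31).

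Of the inhibitors, Cdkn1c measured 87.0, 79.6 and 61.2 CPM in WT and 30.6, 34.1 and 34.4 CPM in cKO cultures. The highest cKO culture lay well below the lowest WT culture (log2 fold change -1.20, SE 0.12, edgeR adjusted p = 5.03e-06). Gm44732 on the other strand shares 43.3% of its exonic bases, a stretch that appears to carry no counts in the table. Cdkn1b measured 166, 154 and 146 CPM in WT and 137, 113 and 137 CPM in cKO, again without overlap but with a smaller fall (-0.27, SE 0.09, edgeR adjusted p = 0.0257). Cdkn2c lay between 32.8 and 37.3 CPM in all 6 cultures and its groups overlapped (-0.02, edgeR adjusted p = 0.870).

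Only 1 of the pocket proteins passed the test. Rbl1, whose gene is itself a classical E2F target, measured 22.1, 17.8 and 15.4 CPM in WT and 24.1, 23.7 and 23.7 CPM in cKO cultures, without overlap (log2 fold change 0.37, SE 0.13, edgeR adjusted p = 0.0319). Rb1, the founding member of the family, had all cKO cultures above all WT cultures with means of 73.6 ± 7.33 and 83.2 ± 3.01 CPM (SD, n = 3) and did not pass (0.17, edgeR adjusted p = 0.124). The fall of Cdkn1c held in each fit that left 1 culture out. Ccnd1 lost its call without cKO replicate 3 (edgeR adjusted p = 0.0626). Ccnd2 lost it without WT replicate 2 or cKO replicate 1 or 3 (edgeR adjusted p = 0.0575 to 0.0893), Cdkn1b without WT replicate 2 or cKO replicate 2 (0.0584 and 0.148), and Rbl1 in 5 of the 6 fits, all but the one without WT replicate 1 (0.0687 to 0.127).

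**Figure D1:**
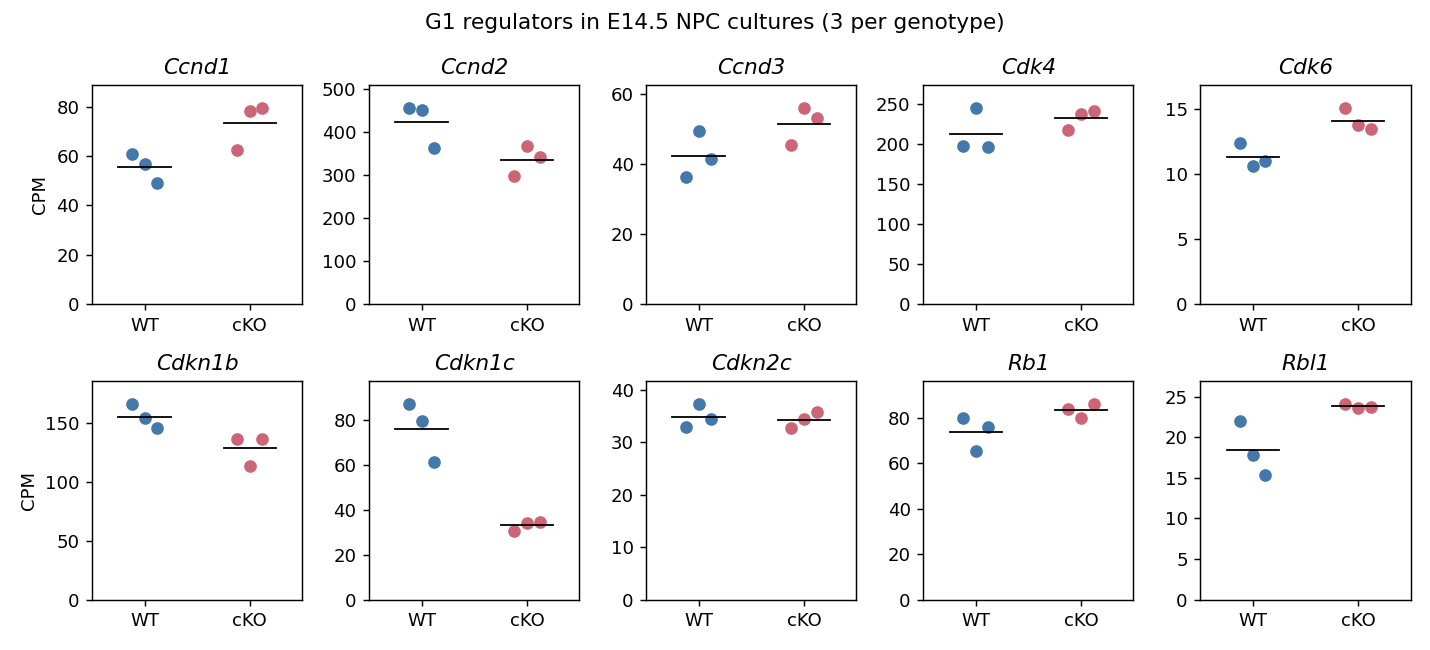
CPM (linear axis from 0) of each member in the 3 WT and 3 cKO NPC cultures, with 1 point per culture and a line at each mean. Cdkn1c is the member with the widest gap, 61.2 to 87.0 CPM in WT against 30.6 to 34.4 CPM in cKO.

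Other genes of the G1/S pathway were taken from a list of 33, of which 32 were tested. Of these 9 rose and 5 fell, beside 19.7% and 19.8% of all genes tested, so the counts are not read as a pathway result. Their median log2 fold change was 0.09. The largest rises were Ccna2, the S and G2 phase cyclin (1.22), the atypical repressors E2f7 (1.15) and E2f8 (0.73), Mnat1, an assembly factor of the CDK-activating kinase (0.70), and Ccne1, the cyclin that follows the D types (0.65). The largest falls were Mycn (-2.90) and Myc (-0.50), which drive growth, the inhibitors Cdkn1a (p21, -1.63) and Cdkn2b (p15, -1.44), and Lin52 of the DREAM complex (-0.36). Cdkn1a measured 81.4, 98.6 and 118 CPM in WT and 28.4, 32.0 and 35.6 CPM in cKO, and every cKO culture lay below every WT culture, as for Cdkn2b and Cdkn1c. Cdkn2a and Cdkn2d did not pass (edgeR adjusted p = 0.759 and 0.254).

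Neural progenitor markers summed to 4760 to 5732 CPM in WT and 5472 to 6122 CPM in cKO cultures. Other marker lists also differed in the same cultures, where 19.7% of all genes tested were called higher and 19.8% lower. Of 6 proliferation markers, 5 rose, such as Cdk1 (1.34) and Top2a (1.02), while Pcna did not pass (0.11, edgeR adjusted p = 0.380). Their summed level was 199 to 246 CPM in WT and 317 to 428 CPM in cKO. In tissue APs, with 1 embryo per genotype, the same markers split. Ccnb1 (log2 ratio -0.32) and Mki67 (-0.13) were lower in cKO, and Cdk1 (0.09), Top2a (0.14), Pcna (0.26) and Mcm2 (0.37) were higher. Of 12 neuron genes tested in the cultures 10 fell and 0 rose, with a median log2 fold change of -0.73. The summed level of that list overlapped, at 2421 to 2741 CPM in WT and 2428 to 2535 CPM in cKO. That sum is weighted to abundant genes such as Map2 (186937 counts over all cultures), so it does not show equal neuronal content. Migrating neuron markers summed lower in cKO (416 to 506 and 254 to 265 CPM in WT and cKO, 7 of 9 lower). Immature neuron markers summed higher there (452 to 477 and 536 to 552 CPM), although 5 of 10 were called lower and 3 higher. In summed level the neuronal lists thus did not move as one, while the median log2 fold changes of the migrating and immature lists were -0.70 and -0.57. Glial lists summed lower in cKO, the astrocyte list at 5758 to 5995 and 3549 to 3919 CPM with 7 of 9 genes lower and 1 higher, and the oligodendrocyte lineage list at 4625 to 5023 and 3280 to 3882 CPM with 4 of 9 lower and 2 higher. Tubb3, Neurod1 and Nefl are listed at 0 in all cultures, as were 10806 of the 10809 genes that other genes of the table cover wholly. Endothelial markers, whose cells carry much Cdkn1c in tissue, summed to 2.12 to 3.30 CPM in WT and 2.04 to 2.75 CPM in cKO, with Cldn5 and Cdh5 at 0. The part of these markers in the member results was not tested, and in bulk cultures fewer cells of a type and less RNA per cell cannot be told apart.

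In the neocortex the 10 members were followed across cell classes, each a group of clusters named from marker genes and summed over its cells. The classes were APs (960 WT and 1318 cKO cells), IPs (724 and 778), migrating neurons (1867 and 1756), immature neurons (1027 and 1213) and GE cells (1189 and 1642). Both libraries shared 22 barcodes, and medians were 11705 UMIs per WT cell and 11012.5 per cKO cell, a UMI being 1 captured transcript. Levels are UMIs of a gene per 1000000 UMIs of the class (CPM, from 3′ ends and thus not divided by gene length). With 1 embryo per genotype there was no test, and intervals are 95% intervals of counting error only. Clusters 10 and 12 of the APs, 17 and 19 of the IPs and 15 of the GE cells were led by cycling genes.

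The members fell into contrasting patterns along the AP to neuron sequence. Ccnd1, Ccnd2, Ccnd3, Cdkn2c and Rbl1 were highest in APs within the dorsal lineage. In WT, Ccnd1 stood at 65.3 CPM in APs, 33.1 in IPs, 6.28 in migrating and 3.76 in immature neurons. Cdkn2c showed the steepest decline, from 36.2 CPM in APs and 17.2 in IPs to 0.68 in migrating and 0.30 in immature neurons, where it rested on 15 and 5 UMIs. Cdk6 stood at 193 CPM in APs and 210 in IPs, against 73.2 in migrating and 6.56 in immature neurons.

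The 2 inhibitors of the Cip/Kip family differed from each other. Cdkn1c was lowest of the 5 classes in WT APs, at 14.46 CPM (12.46 to 16.69), and stood at 168 CPM in IPs, 154 in migrating and 98.3 in immature neurons. Cdkn1b was lowest in immature neurons instead, at 130 CPM in APs, 204 in IPs, 209 in migrating and 76.2 in immature neurons, the IP and migrating values lying within each other's intervals. Rb1 peaked in IPs at 119 CPM, and Cdk4 did so at 753 CPM. Outside the neural lineages, Cdkn1c was highest in meningeal fibroblasts (1107 CPM) and endothelial cells (555 CPM), and Ccnd1 in endothelial cells (184 CPM).

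**Figure D2:**
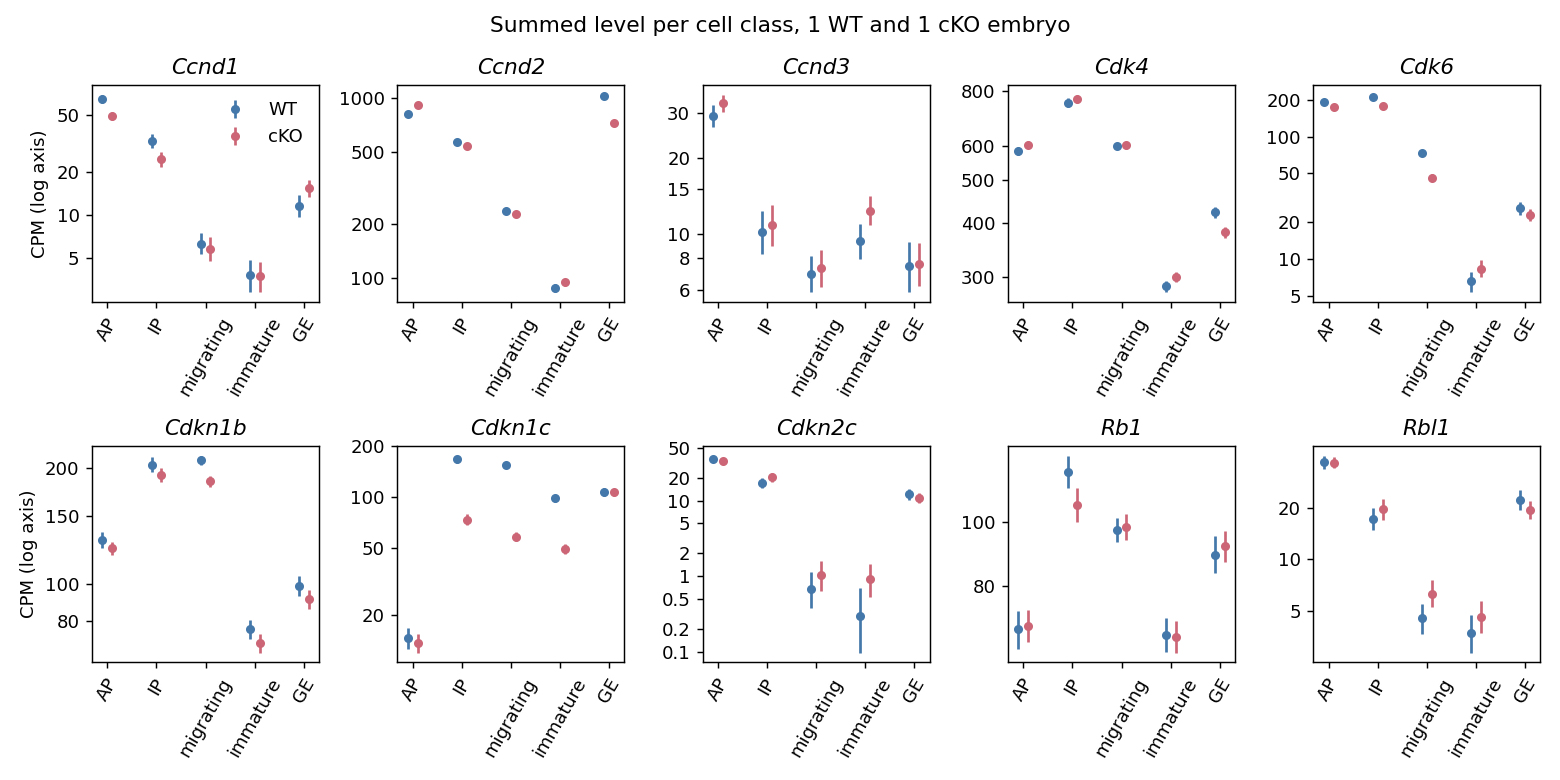
Level of each member in 5 cell classes (CPM, log axis) in the WT and the cKO embryo, with 95% counting intervals. Ccnd1 declines from APs to immature neurons, Cdkn1c is lowest in APs, and its WT and cKO points part in IPs, migrating and immature neurons but lie close in APs and GE cells at the clustering used here (resolution 0.8).

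Members past a log2 ratio of 0.2 with at least 200 UMIs numbered 1 of 10 in APs, 4 of 10 in IPs, 3 of 9 in migrating neurons and 2 of 9 in GE cells. The shares of all genes past it were 22.8%, 21.3%, 17.9% and 18.7%. In immature neurons 2 of 7 members were that much higher and 1 lower, beside 10.5% and 9.55% of all genes. In APs the member was Ccnd1, lower in cKO. In IPs Cdkn2c was higher and Ccnd1, Cdk6 and Cdkn1c were lower. In migrating neurons Rbl1 was higher and Cdk6 and Cdkn1c were lower. In immature neurons Ccnd3 and Cdk6 were higher and Cdkn1c lower, and in GE cells Ccnd1 was higher and Ccnd2 lower. Cdkn1c was the member that differed most between the embryos. In IPs the WT embryo held 168 CPM and the cKO embryo 73.3 CPM, a log2 ratio of -1.19 (-1.32 to -1.07). In migrating neurons the levels were 154 and 58.1 CPM (-1.40, -1.502 to -1.306), and in immature neurons 98.3 and 49.1 CPM (-1.0003, -1.12 to -0.88). All 3 intervals lay far from 0, and the cKO embryo was the lower one each time.

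Ratios of this size were rare among all genes with at least 200 UMIs. Only 0.142% of 9140 genes in IPs, 0.109% of 10115 in migrating neurons and 0.159% of 10079 in immature neurons had a log2 ratio of -1 or less. Cdkn1c ranked 8 from the bottom in IPs, 4 in migrating neurons and 16 in immature neurons. In GE cells the levels were 107 and 106 CPM (-0.01, -0.12 to 0.10). In APs they were 14.46 and 13.50 CPM (-0.10, -0.38 to 0.18), but this value depended on the cells counted and their weights. It was -0.89 with clusters at resolution 0.4 in place of 0.8, -0.45 with cells weighted equally and 0.37 with phases weighted equally, so no direction is given for APs.

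Within single clusters, Cdkn1c was lower in cKO beyond the counting interval in 7 of the 8 clusters of IPs, migrating and immature neurons. The log2 ratios ran from -1.68 in migrating neuron cluster 2 (213 and 66.6 CPM) to -0.43 in cycling IP cluster 19 (65.5 and 48.5 CPM, interval -0.92 to 0.04). The near-equal GE class held a mixture. Cluster 3, its largest, measured 168 and 184 CPM and held 863 of the 1151 WT UMIs. Lower in cKO were cluster 9 (44.2 and 26.2 CPM, -0.76, -1.15 to -0.37) and cluster 16 (74.4 and 41.8 CPM, -0.83, -1.41 to -0.27). Cycling cluster 15 was also lower, with an interval that spanned 0 (48.8 and 37.0 CPM, -0.40, -0.85 to 0.05). Cluster 11, which could not be named and was larger in cKO, with 403 cells against 96, measured 36.8 and 44.2 CPM.

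**Figure D3:**
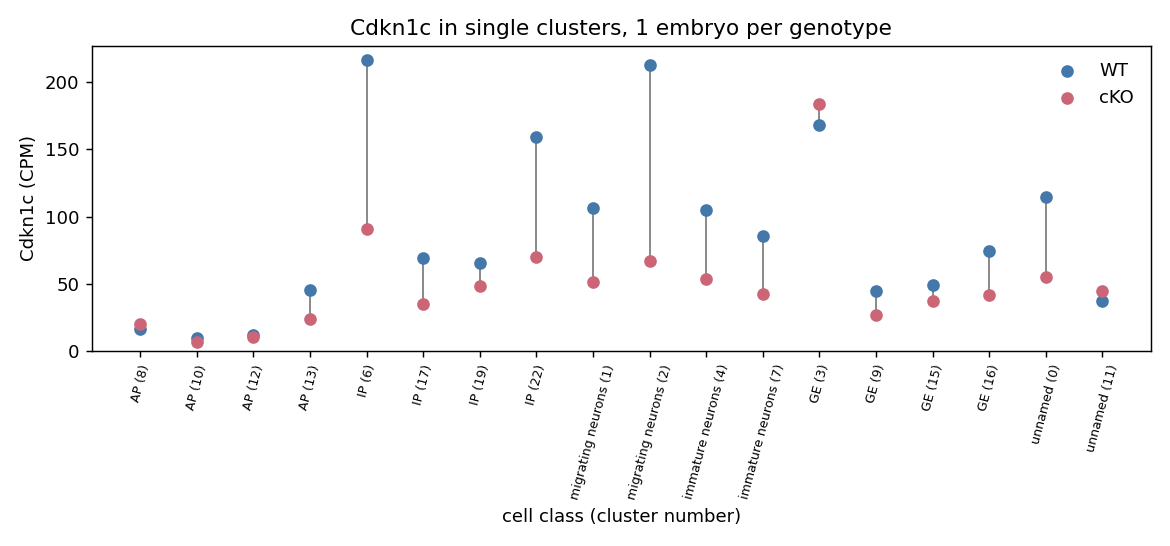
Cdkn1c level (CPM, linear axis from 0) in each cluster of the named neural classes and in unnamed clusters 0 and 11, with WT and cKO points of 1 embryo each joined by a line. The widest gaps lie in IP cluster 6 and migrating neuron cluster 2, and the cKO point is higher in AP cluster 8, GE cluster 3 and cluster 11.

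The share of cells with a Cdkn1c UMI gave the same order at a fixed depth of 5000 UMIs per cell. In IPs it was 42.0% (38.3 to 45.8) of 693 WT cells and 23.9% (20.9 to 27.1) of 745 cKO cells, after 31 and 33 shallower cells were left out. In migrating neurons it was 41.3% and 21.5%, and in GE cells 33.7% and 32.2%. Without thinning, the IP shares were 58.4% and 41.1% at median depths of 12698.5 and 12175.5 UMIs. The AP shares, 4.35% and 4.03% of thinned cells, served as the low reference, and red blood cells carried Cdkn1c UMIs in 2 of 54 WT and 1 of 55 cKO cells at median depths of 3569.5 and 2838 UMIs.

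Non-neural classes also differed, on few cells. Endothelial cells measured 555 CPM of Cdkn1c in the 24 WT cells and 119 CPM in the 33 cKO cells (-2.22, -2.50 to -1.94), at median depths of 39431 and 22067 UMIs. Meningeal fibroblasts went the other way, with 1107 and 1722 CPM (0.64, 0.47 to 0.81). These cells lie outside the lineage in which Emx1-Cre is known to act, and with 1 embryo each, genotype and embryo cannot be told apart.

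The cyclins differed less, and by class. With clusters at resolution 0.8, Ccnd1 was the only member past a log2 ratio of 0.2 in APs, with 65.3 CPM in the WT and 49.7 CPM in the cKO embryo (-0.39, -0.53 to -0.26). Of the 10389 genes measured there, 12.7% lay at least 0.2 above and 10.0% as far below, so 1 of 10 members is the background share. At resolution 0.4, Ccnd2 and Ccnd3 were past it upward (0.20 and 0.22) and Cdkn1c downward beside Ccnd1, whose ratio ran from -0.40 to -0.28 over all alternatives. The difference sat mainly in cycling AP cluster 12 (95.5 and 41.6 CPM, from 286 and 222 UMIs). Cluster 13 was also lower in cKO (46.9 and 24.96 CPM, interval -1.78 to -0.07). It held only 31 and 21 Ccnd1 UMIs, at median depths of 2642 and 2821 UMIs per cell. Cluster 8 (54.7 and 50.4 CPM) and cluster 10 (59.2 and 61.1 CPM) had intervals that spanned 0. Ccnd1 was also lower in cKO IPs (33.1 and 24.6 CPM, -0.43) and higher in cKO GE cells (11.6 and 15.4 CPM, 0.41).

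Ccnd2 was slightly higher in cKO APs (813 and 918 CPM, 0.17, 0.14 to 0.21) and in each of the 4 AP clusters. In GE cells it was lower, from 1028 CPM in WT to 725 CPM in cKO (-0.50, -0.54 to -0.46). Cycling GE cluster 15 stood at 3229 and 2462 CPM, cluster 9 at 1652 and 1031 CPM, and cluster 16 at 189 and 80.6 CPM. In GE cluster 3, the largest, it was slightly higher in cKO (79.1 and 91.1 CPM, 0.20, 0.02 to 0.39). Emx1-Cre spares the GE, and with 1 embryo each, genotype and embryo cannot be told apart in any class. Ccnd3 was close in APs (29.4 and 32.8 CPM) and higher in cKO immature neurons (9.37 and 12.4 CPM, 0.40, 0.10 to 0.70).

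Of the kinases, Cdk4 differed little, by 0.05 in APs, 0.03 in IPs and -0.15 in GE cells (423 and 380 CPM). Cdk6 was lower in cKO in migrating neurons, at 73.2 and 46.0 CPM (-0.67, -0.79 to -0.55), and to a lesser degree in IPs (-0.24) and APs (-0.15). In immature neurons it was low and higher in cKO, at 6.56 and 8.35 CPM, with an interval that spanned 0 (0.35, -0.01 to 0.71). Of the migrating neurons, cluster 2 held most of it (153 and 95.2 CPM). Cdk6 ranked 44 from the bottom of the 10115 genes in migrating neurons.

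The remaining members were near equal in APs. Cdkn1b measured 130 and 124 CPM (-0.07, -0.16 to 0.02), Cdkn2c 36.2 and 33.5 CPM, Rb1 68.8 and 69.7 CPM, and Rbl1 37.0 and 36.7 CPM. Beyond APs, Cdkn1b was lower in cKO migrating neurons (209 and 184 CPM, -0.18, -0.24 to -0.12), short of the 0.2 limit. Rbl1 was higher in those cells, at 4.51 and 6.28 CPM (0.48, 0.09 to 0.88), on 99 and 122 UMIs. Cdkn2c was higher in cKO IPs, at 17.2 and 20.3 CPM, with an interval that spanned 0 (0.24, -0.05 to 0.54). Rb1 stayed within 0.2 in all 5 classes, its farthest ratio being -0.17 in IPs. The median log2 ratio of the members in APs was -0.04, beside -0.01 for all genes there.

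**Figure D4:**
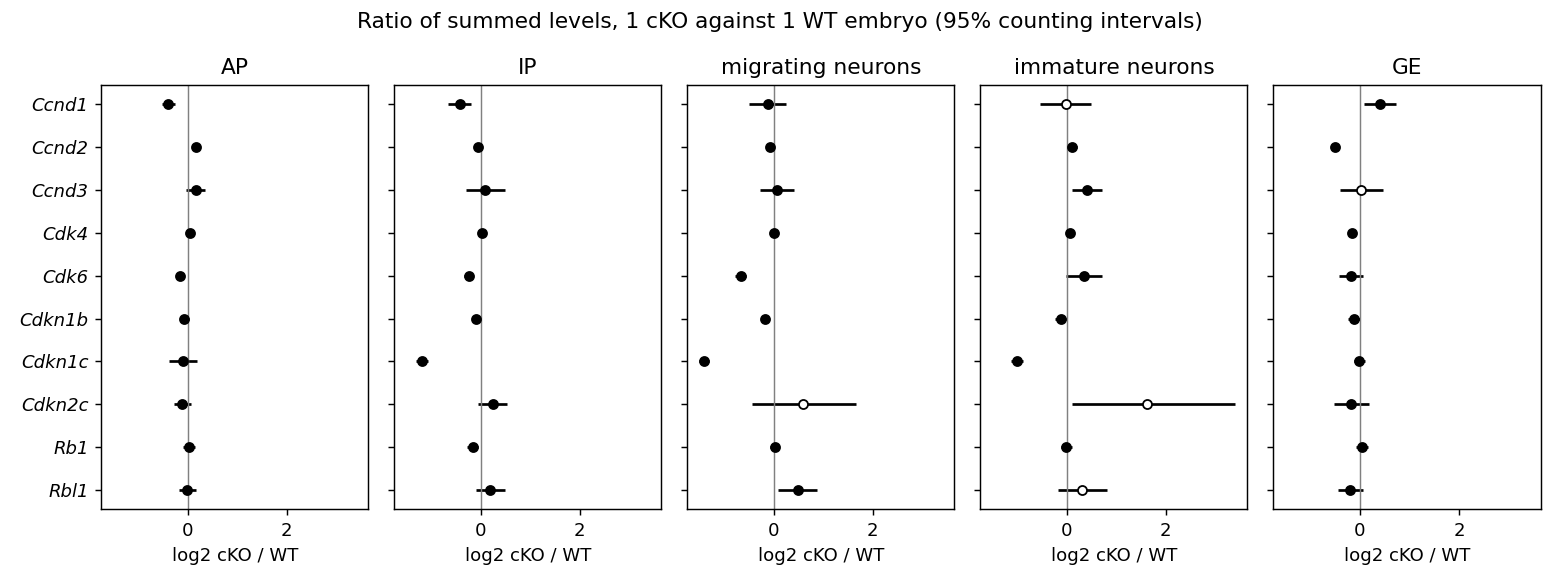
Log2 ratio of cKO to WT level for each member in 5 cell classes with 95% counting intervals; open points rest on fewer than 200 UMIs in all. Cdkn1c stands apart at -1.19, -1.40 and -1.0003 in IPs, migrating and immature neurons. It lies at -0.10 in APs (-0.89 at resolution 0.4) and -0.01 in GE cells, whose single clusters differed.

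Cell cycle phases were called in APs thinned to 5000 UMIs from lists of 43 S and 54 G2/M genes that hold no member. Of 781 WT APs 18.3% (15.7 to 21.2) and of 1141 cKO APs 12.8% (10.9 to 14.9) were called G1, while 35.5% and 43.1% were called S. Rbl1 was lowest in G1 in both embryos, with 8.50 and 8.25 CPM in WT and cKO, against 45.5 and 38.5 CPM in S phase. Cdkn2c was likewise low in G1, at 2.83 and 4.12 CPM, against 52.7 and 49.7 CPM in G2/M. Both genes thus had their lowest level in G1 in both embryos.

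Cdkn1c was the member highest in G1 relative to G2/M among APs, with a log2 difference of 0.89 (0.28 to 1.48) in WT and 1.97 (1.51 to 2.43) in cKO. In G1 APs it stood at 20.96 CPM in WT, from 37 UMIs, and 38.1 CPM in cKO, from 74 UMIs. In IPs it was lower in cKO in each phase, at 218 and 91.4 CPM in G1, 128 and 48.5 CPM in S, and 80.1 and 46.7 CPM in G2/M. Ccnd1 in APs was lower in cKO at 45.9 and 34.5 CPM in G1 and at 69.3 and 45.4 CPM in G2/M. Its log2 ratio of G1 over S was -0.61 (-0.99 to -0.25) in WT and -0.81 (-1.20 to -0.44) in cKO. The gap between the embryos was thus smaller in S than in G1, and no interval was taken for a gap within a phase. With cells thinned to 3000 UMIs for the call, the G1 values were 35.8 and 29.3 CPM.

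Of the other G1/S pathway genes in APs, the largest differences upward were Ccne1 (20.8 and 30.3 CPM, 0.54), Ccne2 (0.38) and the INK4 inhibitor Cdkn2d (0.37). The largest downward were Mycn (65.6 and 51.0 CPM, -0.36), Ccna2 (-0.26) and the E2F partner Tfdp2 (-0.24). Mycn and Ccne1 had the same direction in the cultures, and Ccna2 the opposite one.

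Over 16 points, 8 classes in each of 2 libraries, the genes whose log2(CPM + 1) pattern was most like that of Cdkn1c were Pla2g7 (Pearson r = 0.86), Tmem150a (0.86) and Trf (0.85). Those most like Ccnd1 were Arsk (0.96), Hist1h4i (0.95) and Apool (0.94), and those most like Cdkn1b were Ddah2 (0.96), Brcc3 (0.95) and Qser1 (0.95). The points share 2 libraries and their depth, and the values are descriptions over 10372 genes.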

How the data were processed

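For RNA-seq, the authors removed low-quality read pairs, mapped the rest to mm10 by HISAT2 and deposited raw counts per gene without normalization. For the counting program, annotation and strand setting: not given in the sources used here. This table gives each gene its whole span as length, and of the 10809 genes wholly covered by other genes 10806 are listed at 0, so overlapped stretches appear to carry no counts and levels were not compared between genes of the cultures. By GENCODE M21, other genes share 43.3% of the exonic bases of Cdkn1c (with Gm44732), 59.7% of Rb1, 37.6% of Ccnd1, 28.7% of Ccnd2 and 18.6% of Cdk4. For scRNA-seq, the authors deposited UMI counts per gene and barcode from Cell Ranger 7.0.0, not normalized. LACE-seq was not analysed here.

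Cultures were compared in R 4.3.3 with edgeR 4.0.16 (filterByExpr, TMM, robust quasi-likelihood fit, Benjamini-Hochberg adjustment at 0.05 over 14432 genes). With Seurat 5.3.0, barcodes under 200 genes or over 10% mitochondrial UMIs were removed, leaving 8214 WT and 9560 cKO cells. They were clustered without integration on 2000 variable genes, without the members and pathway genes, with 30 components, 20 neighbours and resolution 0.8. Clusters were named from marker lists, with limits set after the clusters were seen. Doublets called by Scrublet in scanpy 1.11.5 (298 and 451) were removed only as an alternative. UMIs were summed per class, with exact 95% Poisson, binomial or conditional intervals. The naming rule took all members in every comparison; the text gives all in the cultures and APs, and in other classes at least those past a log2 ratio of 0.2, with the rest only plotted; of the other G1/S genes, the 5 largest called rises and falls in cultures and the 3 largest ratios each way in APs. Members and lists were chosen with earlier results of these data known. The culture fit was tested on simulated data in which 200 of 14432 genes changed. It recovered 177 of them, and 14 of its 191 calls (7.33%) were false. Far more genes, 5701, were called in the cultures, so the simulation does not measure the error of those calls. Alternatives were other scalings, filters, DESeq2 1.42.0, limma-voom 3.58.1, a block, a sex covariate, omitted cultures, resolutions, cell filters and weights.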

Additional observations from a re-analysis of the deposited data

Results flagged for a closer look

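Ccnd1 went in opposite directions in the cultures and in the tissue. It was higher in every cKO culture than in every WT culture, while its log2 ratio in APs was -0.39. It also differed in sign between APs and GE cells, where the log2 ratio was 0.41. Ccnd2 was higher in cKO APs but had a log2 ratio of -0.50 in GE cells, and Cdk4, near equal in APs, had one of -0.15 there. These differences between sample types were not tested, since the tissue holds 1 embryo per genotype.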

How the results depend on the processing

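In the cultures, other scalings, filters, tools and the sex covariate left the counts of called members at 2 or 3 higher and 3 lower. Leaving out 1 culture gave 0 (without cKO replicate 3) to 4 (without WT replicate 1) members higher and 1 (without WT replicate 2) to 3 lower. The calls over all genes also moved. They were 2068 higher and 2040 lower of 14747 without cKO replicate 3, and 3070 and 3275 of 14764 without WT replicate 1. Without WT replicate 2 they were 2080 and 2332 of 14786, so these counts are not read as a trait of the members. Cdkn2c, not called, ran from -0.071 to 0.016 and changed sign without WT replicate 2 and without cKO replicate 1. Same-numbered cultures correlated at 0.26, -0.05 and 0.12, so the numbers were not taken as pairs. With a replicate block 3 members rose and 3 fell, as Ccnd3 was then called (edgeR adjusted p = 0.0108). That fit called 3189 genes higher and 3216 lower of all 14432.

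In APs, 0 members were at least 0.2 higher and 1 lower. At resolution 0.4 the counts were 2 and 2, with phases weighted equally 1 was higher, and with doublets removed or cells weighted equally 2 were lower. The share of all genes past 0.2 was taken only at the main setting, so these counts have no background beside them. Cdkn1c in APs was -0.89 at resolution 0.4, -0.45 with cells weighted equally and 0.37 with phases weighted equally, so its near-equality in APs depends on which cells are counted and how. Alternatives for Cdkn1c in other classes were chosen after seeing the data: in IPs it was -1.40 at resolution 0.4, in migrating neurons -1.17 at 0.4 and -1.23 at 1.2, and in GE cells 0.10 without doublets. The causes were not tested. Counting depth limits Cdkn1c in APs, at 187 and 257 UMIs.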
